A study of Homo sapiens with 6 samples.

Results

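The genes described here belong to families named for enzymes that place or remove methyl groups on histones. They were measured in A549 cells with and without silencing of FSCN1. Names do not settle activity, SETD3 being a methyltransferase of actin and KDM8 a hydroxylase. Members were chosen by a rule on gene names, which was set with earlier results of these data known. It takes every protein-coding gene of the count table with a symbol of these families: KDM, KMT, SETD, SETDB, SUV39H, EHMT, NSD, EZH, PRMT and SMYD. ASH1L and DOT1L were taken as well. The rule found 59 genes among the 30230 genes of the table, of which 17075 were protein-coding. KDM4E, KDM4F, PRMT8 and SMYD1, which the rule also covers, had no row in the table. PRMT6 held 2 counts in 1 siFSCN1 library and 0 in the other 5 libraries, so it did not pass the filter on low counts, and 58 members were tested.

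A549 is an established human lung adenocarcinoma line. The series held 6 libraries of polyadenylated RNA in 2 groups of 3. The NC group received a negative control, which the study's methods call a scrambled siRNA and the sample labels a control plasmid, and the siFSCN1 group received siRNA against FSCN1, the actin-bundling protein fascin. Both groups were the same line, transfected with lipid reagent and harvested at a single time, so the comparison rests on 1 cell line and on the siRNA used. For the sequenced libraries the study's text names 1 siRNA of the 3 it lists. Its Results describe the siRNA as expressed from a plasmid, whereas its methods list siRNA sequences. The study's text calls the libraries biological replicates, and the labels do not tie them to separate cultures, so the p-values cover the spread between these libraries, whatever its source.

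Histone methylation is written by lysine methyltransferases, most of which share a SET domain, and by protein arginine methyltransferases, all of which draw the methyl group from S-adenosylmethionine. It is erased by the flavin-dependent LSD enzymes and by JmjC-domain oxygenases that need iron and 2-oxoglutarate. Methylation of H3K4 marks promoters and enhancers, H3K36 and H3K79 methylation accompany transcribed genes, and H3K9, H3K27 and H4K20 methylation mark repressed chromatin, the H3K27 mark being placed by Polycomb repressive complex PRC2. In lung cancer these enzymes are studied for recurrent mutations and as drug targets, EZH2, PRMT5, KDM1A and NSD2 among them.

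FSCN1 was measured first as a check on the labels. It stood at 211, 220 and 212 CPM (counts scaled to library size with TMM factors) in the NC libraries and at 18.3, 11.8 and 13.2 CPM in the siFSCN1 libraries, a log2 fold change of -3.89 (SE 0.09, adjusted p = 8.1e-16, edgeR quasi-likelihood test with Benjamini-Hochberg adjustment over 17076 genes). Total counts ran from 27967301 to 36560919 in NC and from 30908982 to 32676062 in siFSCN1, and the members took 57540 to 74606 counts of a library. Of 11 A549 and lung epithelial markers, 8 had at least 1 FPKM (the deposited level, scaled to gene length and library size). Their summed level was 7339 to 7959 in NC and 7133 to 7557 in siFSCN1, while NKX2-1 and SFTPC were near 0 and SFTPB had no row. Within this sum KRT8, KRT18, KRT7 and KRT19 were lower in siFSCN1, KRT18 going from a mean of 1820 to 1030 FPKM. EPCAM, CDH1, ALDH1A1 and AKR1B10 were higher, CDH1 going from a mean of 9.23 to 26.4 FPKM. None of 10 markers of immune, endothelial, fibroblast or smooth muscle cells reached 1 FPKM (0 of 10), their summed level being 0.71 to 0.99 in NC and 0.41 to 0.72 in siFSCN1. Counts of libraries of the same group differed by a chi-square of 3.03 to 8.14 per degree of freedom over genes and those of different groups by 105 to 131, so no 2 libraries were copies and none lay closer to the other group.

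As a group, the enzymes moved in both directions and mostly by small amounts. At an adjusted p under 0.05, 39 of 58 members passed (67.2%), against 68.3% of all genes tested, so the share that passed was near the background. Of these, 27 were higher in siFSCN1 (46.6%, background 35.1%) and 12 were lower (20.7%, background 33.2%). Counts in the lists below are to be read against these background shares. Only EZH1 rose and only SMYD5 and KDM4D fell by at least 2-fold, 3 members in all (5.17%, background 16.5%). The background is over all genes tested, while all members are protein-coding. Of the protein-coding genes tested 72.1% passed, 34.1% being higher and 38.0% lower, and 13.4% changed at least 2-fold. The median log2 fold change was 0.15 over the members, 0.03 over all genes tested and -0.02 over the protein-coding genes tested. In 42 members (72.4%) the CPM of the groups did not overlap, against a background of 71.3% (74.6% of the protein-coding genes tested). When libraries were scaled by their totals alone, the median over all genes moved to 0.22 and the split of members to 39 higher and 7 lower, so small changes are to be read against this shift. Upper quartile scaling gave 35 higher and 10 lower, with a median over all genes of 0.15.

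Both erasers and writers held members of either direction. Among the 18 members named as demethylases (KDM) 8 were higher, 4 lower and 6 did not pass, with a median log2 fold change of 0.11. Among the 40 members of the methyltransferase families 19 were higher, 8 lower and 13 did not pass, with a median of 0.15.

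**Figure D1:**
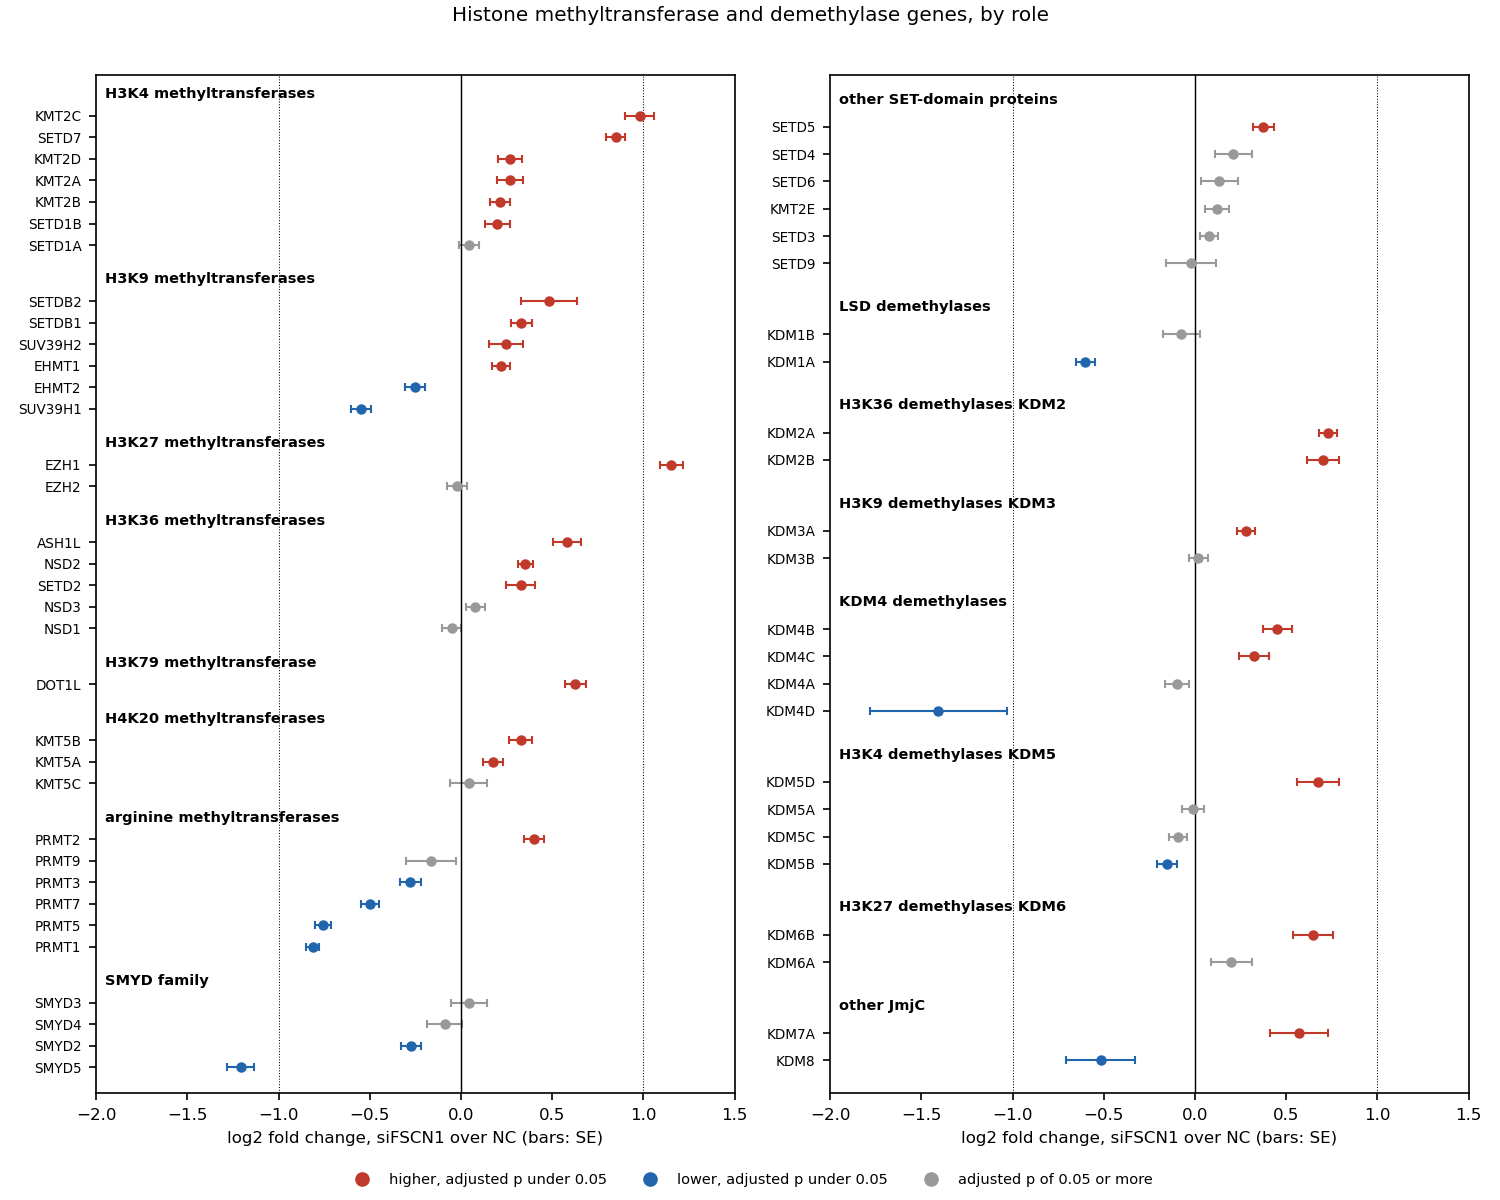
Log2 fold change of the 58 tested members (siFSCN1 over NC, horizontal axis), with bars of 1 SE, grouped by role, red and blue points having an adjusted p under 0.05 in the edgeR quasi-likelihood test. EZH1 stands right of the dotted line at a log2 fold change of 1, SMYD5 and KDM4D left of that at -1. Of the 6 arginine methyltransferases 4 are lower at an adjusted p under 0.05, and PRMT9 lies below 0 without passing.

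The promoters of EZH1, EZH2 and SMYD5 are shown because EZH1 rose the most of all members, EZH2 is its paralogue and SMYD5 had the largest fall among the abundant members. The sequences are those of RefSeq on GRCh38.p14, from 250 bases before the annotated start up to the first exon of any annotated transcript, 5′ to 3′ on the strand of the gene. Capitals mark the GC box, GGGCGG, and the CCAAT box, CCAAT, searched on both strands. 
EZH1, chr17:42745050-42745290, minus strand: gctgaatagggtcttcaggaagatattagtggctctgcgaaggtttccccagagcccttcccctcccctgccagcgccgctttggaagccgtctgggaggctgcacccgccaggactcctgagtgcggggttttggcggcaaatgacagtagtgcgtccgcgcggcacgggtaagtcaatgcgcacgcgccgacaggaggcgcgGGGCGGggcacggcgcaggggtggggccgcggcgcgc
EZH2, chr7:148884322-148884541, minus strand: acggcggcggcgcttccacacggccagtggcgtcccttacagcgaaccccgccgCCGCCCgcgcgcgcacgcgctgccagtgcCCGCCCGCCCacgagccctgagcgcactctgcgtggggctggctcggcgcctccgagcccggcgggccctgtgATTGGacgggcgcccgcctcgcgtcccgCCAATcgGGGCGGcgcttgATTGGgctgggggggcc
SMYD5, chr2:73213995-73214221, plus strand: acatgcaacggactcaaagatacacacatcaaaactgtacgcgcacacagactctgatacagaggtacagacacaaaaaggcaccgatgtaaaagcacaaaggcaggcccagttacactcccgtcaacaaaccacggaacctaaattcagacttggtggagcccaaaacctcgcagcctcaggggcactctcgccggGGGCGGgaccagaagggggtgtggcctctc

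In these windows EZH1 and SMYD5 each had 1 GC box and no CCAAT box, and EZH2 had 4 GC boxes, of which 2 overlap, and 3 CCAAT boxes. Their GC content was 68.0% for EZH1, 78.6% for EZH2 and 54.2% for SMYD5. RefSeq promoters were found for 55 of the 58 tested members. Over the whole 250 bases before the start, a GC box was present in 42 of the 55 (76.4%) and in 42.6% of the 35116 promoters of the table, which include those of non-coding genes. It was found in 18 of 25 higher members, in 10 of 12 lower members and in 14 of 18 members that did not pass. A CCAAT box was present in 18 of the 55 (32.7%, all promoters 32.0%), of which 7 were of higher members, 3 of lower members and 8 of members that did not pass. The E2F sites TTTGGCGC and TTTCGCGC were found in none of the 55 windows (0.55% and 0.439% of all promoters). Such matches describe the letters in the window and say nothing of whether a factor was bound.

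EZH1 and EZH2, the alternative catalytic subunits of PRC2, changed in their proportion. EZH1 (ENSG00000108799.13, chromosome 17, 42700275-42745049, minus strand) measured 12.7, 13.2 and 14.1 CPM in NC and 30.3, 28.2 and 30.6 CPM in siFSCN1. The lowest siFSCN1 library was well above the highest NC library, and the log2 fold change was 1.15 (SE 0.06, adjusted p = 1.7e-11, edgeR quasi-likelihood test), a 2.22-fold rise. EZH2 (ENSG00000106462.12, chromosome 7, 148807257-148884321, minus strand) measured 35.4, 33.7 and 35.1 CPM in NC and 32.6, 36.9 and 33.3 CPM in siFSCN1. The groups of EZH2 overlapped, and its log2 fold change of -0.02 (SE 0.06, adjusted p = 0.74, edgeR quasi-likelihood test) changed sign with the scaling, being 0.17 (adjusted p = 0.0151) with library totals. Per length, EZH1 stood at 1.52 FPKM ± 0.096 (SD, n = 3) and EZH2 at 2.56 FPKM ± 0.064 in NC, and at 3.79 FPKM ± 0.208 and 2.83 FPKM ± 0.153 in siFSCN1. FPKM carry no TMM factor, and the median log2 fold change over all genes tested was 0.17 on log2(FPKM + 0.1) against 0.03 in the test on counts, so differences between groups in FPKM, summed levels included, lie above those in CPM. The ratio of EZH1 to EZH2 in FPKM, which no scaling between libraries affects, was 0.552, 0.602 and 0.621 in the NC libraries and 1.43, 1.18 and 1.42 in the siFSCN1 libraries. Per length EZH1 was the lower of the pair in all 3 NC libraries and the higher in all 3 siFSCN1 libraries, an order that rests on the gene lengths behind the deposited FPKM. EZH1 had fewer CPM than EZH2 in all 6 libraries, before any account of length. Exonic bases, merged over all annotated transcripts, number 6988 for EZH1 and 10774 for EZH2. A single transcript can be shorter, so the order per length may differ with other lengths.

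SUZ12 and EED, core subunits that bind these enzymes, fell. SUZ12, without which PRC2 does not assemble, fell from 46.5 CPM ± 0.492 to 22.2 CPM ± 0.259 (SD, n = 3), a log2 fold change of -1.06 (SE 0.05, adjusted p = 1.7e-12, edgeR quasi-likelihood test). EED, the subunit that reads the methylated mark, fell from 35.6 CPM ± 1.03 to 25.2 CPM ± 1.12. It is named here after its values were seen, as the remaining core subunit. LCOR, whose locus also encodes a PRC2 accessory protein, had the largest rise among the partners, from 14.2 CPM ± 0.308 to 27.3 CPM ± 1.62. Of 11 PRC2 partners tested, 3 were higher and 2 lower, with a median log2 fold change of -0.06, and with library totals 6 were higher and 2 lower. RBBP4 and RBBP7, histone-binding subunits, did not pass. The levels are those of transcripts, and the amount of assembled complex was not measured.

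Among the methyltransferases of H3K4, 6 of 7 rose and none fell (0 of 7), SETD1A being the member that did not pass. The share higher was 85.7%, against 35.1% of all genes tested and 45.4% of those with at least 8000 exonic bases. With the trends on abundance and length removed, 3 of the 7 were higher, with a median log2 fold change of 0.083. KMT2C (chromosome 7, 152134922-152436644), the enhancer enzyme MLL3, measured 12.01, 12.99 and 13.96 CPM in NC and 23.2, 26.1 and 27.6 CPM in siFSCN1. The groups were far apart and the log2 fold change of 0.98 (SE 0.08, adjusted p = 2.5e-09, edgeR quasi-likelihood test) lay just under the 2-fold threshold. It passed that threshold without NC replicate 3 (1.03) and without siFSCN1 replicate 1 (1.03), with upper quartile scaling, library totals (1.17) and the stricter filter (1.01), and was 0.56 once the trends with abundance and length were removed. Parts of KMT2C have near-identical copies elsewhere in the genome, so uniquely mapped reads can undercount it in both groups. SETD7, which monomethylates H3K4 and many other proteins and is named here after its values were seen, rose from 39.8, 40.9 and 42.2 CPM to 72.5, 72.0 and 76.5 CPM (log2 fold change 0.85, SE 0.05). KMT2B, the most abundant of this group per length, rose from 48.6, 53.9 and 54.4 CPM to 61.0, 61.9 and 59.2 CPM (log2 fold change 0.21, adjusted p = 0.00166, edgeR quasi-likelihood test). The other KMT2 and SETD1 members that rose did so by 0.20 to 0.27 on the log2 scale. The call for SETD1B (0.20) was lost with DESeq2 (0.17) and without NC replicate 1 (0.17), NC replicate 3 (0.19), siFSCN1 replicate 2 (0.20) or siFSCN1 replicate 3 (0.15). KMT2A, KMT2D and SETD1B no longer passed after removal of the trends with abundance and length, KMT2A then being at -0.06. The summed level of the 7 genes was 13.1 FPKM ± 0.662 in NC and 18.4 FPKM ± 0.332 in siFSCN1.

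Of 14 COMPASS and MLL partners, 10 fell and 2 rose (71.4% lower, against 33.2% of all genes tested and 65.7% of those with at least 10 FPKM), with a median log2 fold change of -0.22. WDR5, the scaffold on which these complexes assemble, fell the most, from 63.4 CPM ± 1.49 to 39.8 CPM ± 1.64 (SD, n = 3; log2 fold change -0.67). BOD1L1, a protein of the SETD1A complex, had the largest rise, from 12.5 CPM ± 1.31 to 20.5 CPM ± 1.25. RBBP5, ASH2L and DPY30, which form the core with WDR5 and are named after their values were seen, fell by 0.42, 0.27 and 0.20 on the log2 scale. With library totals the count was 5 lower and 4 higher, ASH2L, CXXC1 and DPY30 no longer passing and HCFC1 and MEN1 then lying slightly above 0 without passing. Limma on log2(FPKM + 0.1) gave 4 lower and 4 higher, and the fit without the trends on abundance and length 6 lower and 3 higher.

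In the H3K9 group 2 of 3 paralogue pairs split and SETDB1 and SETDB2 were both higher. SUV39H1 (chromosome X, 48695554-48709016), which trimethylates H3K9 in constitutive heterochromatin, fell from 44.2, 44.9 and 42.9 CPM to 32.2, 28.7 and 29.4 CPM (log2 fold change -0.55, SE 0.05, adjusted p = 6.6e-08, edgeR quasi-likelihood test). Its paralogue SUV39H2 was higher by 0.25 (adjusted p = 0.0238, edgeR quasi-likelihood test), but that call was lost without NC replicate 2, NC replicate 3 or siFSCN1 replicate 2 (0.22, 0.23 and 0.24), with DESeq2 and with the abundance trend removed. The ratio of SUV39H1 to SUV39H2 in FPKM went from 4.02, 4.40 and 4.14 in NC to 2.71, 2.28 and 2.26 in siFSCN1, with no overlap. SUV39H1 remained the more abundant of the pair in all 6 libraries. EHMT1 and EHMT2, which form the GLP and G9a heterodimer, moved by 0.22 and -0.25, and their FPKM ratio by 0.189, 0.206 and 0.216 in NC against 0.279, 0.289 and 0.281 in siFSCN1. EHMT2 did not pass with library totals (-0.07) or either limma fit on FPKM, nor EHMT1 with the trends on abundance and length removed (0.01). SETDB1, a trimethylase of euchromatic H3K9, was higher by 0.33 (adjusted p = 5.2e-05, edgeR quasi-likelihood test). SETDB2, a little-expressed relative of SETDB1, had the largest rise of the group (log2 fold change 0.48, SE 0.15, adjusted p = 0.00974, edgeR quasi-likelihood test), from 2.60, 2.43 and 2.83 CPM to 3.46, 3.25 and 4.33 CPM. Without siFSCN1 replicate 3 it was 0.34 and did not pass (adjusted p = 0.107, edgeR quasi-likelihood test), nor did it with DESeq2 or with either trend correction. In all, 4 of 6 were higher and 2 lower, and the summed level of the H3K9 group was 22.4 FPKM ± 0.243 in NC and 22.0 FPKM ± 1.14 in siFSCN1.

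Among 11 H3K9 partners 7 were higher and 2 lower. TRIM28, the corepressor that brings SETDB1 to zinc finger proteins, fell the most, from 683 CPM ± 5.60 to 435 CPM ± 19.1 (SD, n = 3; log2 fold change -0.65). ATF7IP2, a relative of the SETDB1 cofactor ATF7IP, had the largest rise at 0.46 on the log2 scale. With library totals 10 were higher and 1 lower, CBX3 changing from the lower to the higher side. DESeq2 gave 3 higher and 2 lower. With the trends on abundance and length removed 4 were higher and 2 lower, ATF7IP2 no longer passing.

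For H3K36, 3 of 5 methyltransferases rose and none fell (0 of 5). The share higher was 60.0%, against 35.1% of all genes tested and 45.4% of those with at least 8000 exonic bases, as all 5 have. NSD2 (chromosome 4, 1871393-1982207), which dimethylates H3K36 and whose transcript the study discusses as bound by FSCN1, was the most abundant per length and rose from 83.2, 80.6 and 81.8 CPM to 105, 103 and 106 CPM. This 1.28-fold difference (log2 fold change 0.35, SE 0.04, adjusted p = 6.3e-07, edgeR quasi-likelihood test) was larger than the spread within either group. ASH1L, which also dimethylates H3K36, rose the most, from 19.7, 18.8 and 17.1 CPM to 24.7, 27.4 and 31.0 CPM (log2 fold change 0.58, SE 0.08). NSD1 and NSD3 did not pass, at -0.05 and 0.08. With library totals all 5 were higher. With the trends on abundance and length removed 3 were higher and 1 lower, NSD1 then being at -0.14 (adjusted p = 0.033, edgeR quasi-likelihood test).

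DOT1L, the sole H3K79 methyltransferase, rose from 17.5, 19.9 and 18.7 CPM to 28.8, 29.9 and 27.9 CPM (log2 fold change 0.63, SE 0.06, adjusted p = 3.3e-08, edgeR quasi-likelihood test). Of 7 DOT1L partners 4 were higher and 2 lower, AFF1 rising from 27.1 CPM ± 0.297 to 50.6 CPM ± 2.40 and TRRAP falling by 0.20 on the log2 scale. AFF1 is a scaffold of the super elongation complex. Upper quartile scaling and library totals left 0 of the 7 partners lower.

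Of the H4K20 methyltransferases KMT5A, which places the first methyl group, was the most abundant and was higher by 0.18 (adjusted p = 0.011, edgeR quasi-likelihood test). That call was lost without NC replicate 1 (0.12) and without siFSCN1 replicate 1 (0.13), and with DESeq2. KMT5B, which adds the further methyl groups, rose from 20.7, 19.3 and 18.3 CPM to 23.3, 24.2 and 25.6 CPM (log2 fold change 0.33, SE 0.06). KMT5C did not pass.

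**Figure D2:**
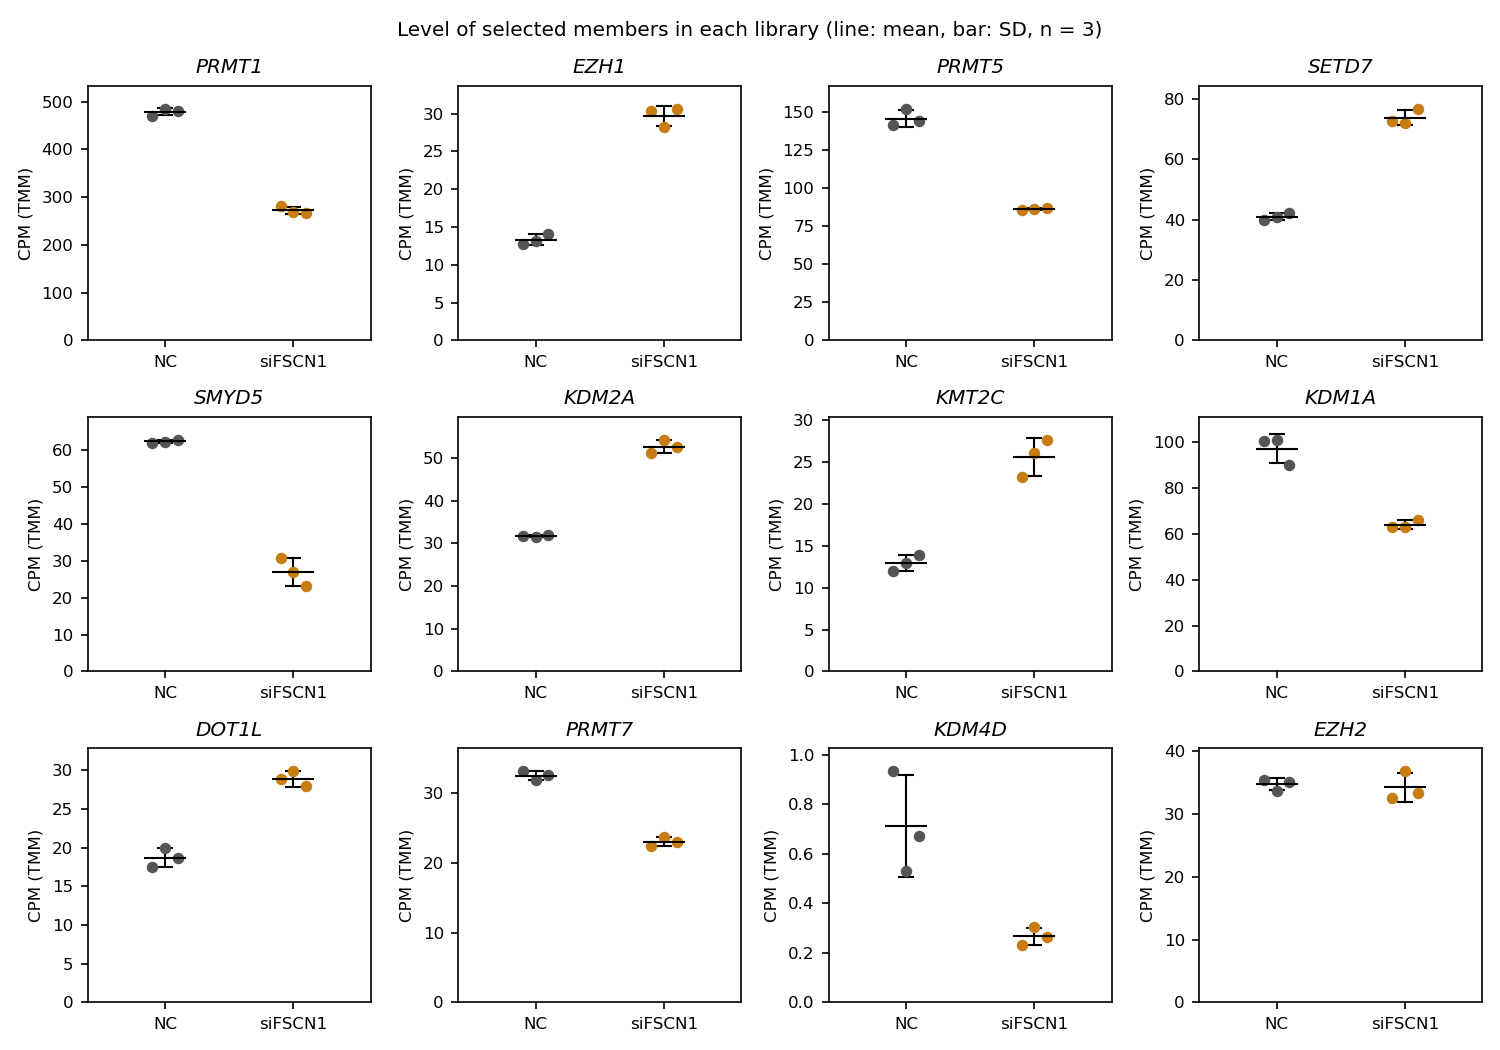
CPM after TMM scaling (vertical axes, each from 0) of 12 members in each of the 3 NC and 3 siFSCN1 libraries: the 10 with the smallest adjusted p, KDM4D and EZH2. Points are libraries, lines the mean and bars the SD, and the groups overlap for EZH2 alone among the 12.

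The arginine methyltransferases were the largest group by level and the one in which most members fell, 4 of 6 tested, with PRMT2 higher. The share lower was 66.7%, against 33.2% of all genes tested. It was 65.7% of genes with at least 10 FPKM, where only PRMT1 and PRMT5 of the group lie, and 25.9% of those under 10 FPKM. With the trends on abundance and length removed 5 of the 6 were lower and 1 higher, with a median log2 fold change of -0.44. PRMT1 (ENSG00000126457.22, chromosome 19, 49675786-49689029), the main enzyme of asymmetric arginine dimethylation, was the most abundant of all members per length, at 79.3 FPKM ± 1.78 in NC and 50.7 FPKM ± 1.96 in siFSCN1 (SD, n = 3). Its CPM were 471, 484 and 481 in NC and 281, 270 and 267 in siFSCN1. The log2 fold change of -0.81 (SE 0.04, adjusted p = 8.9e-13, edgeR quasi-likelihood test) had the smallest adjusted p of any member, and siFSCN1 held 57.0% of the NC level. PRMT5, the main enzyme of symmetric arginine dimethylation, named here after its values were seen, fell from 141, 152 and 144 CPM to 85.6, 86.1 and 86.6 CPM (log2 fold change -0.76, SE 0.04). PRMT7 and PRMT3 fell by 0.50 and 0.28 on the log2 scale, the fall of PRMT3 not passing with library totals or the limma fits on FPKM. PRMT2 rose from 42.3, 39.6 and 46.2 CPM to 56.5, 56.1 and 56.5 CPM (log2 fold change 0.40, SE 0.06, adjusted p = 4.8e-06, edgeR quasi-likelihood test). The ratio of PRMT1 to PRMT2 in FPKM was 17.6, 19.4 and 16.5 in NC and 7.88, 7.62 and 7.50 in siFSCN1, so that PRMT1 stayed the more abundant by a wide margin. The summed level of the group went from 128 FPKM ± 3.43 to 88.6 FPKM ± 2.05.

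Of the PRMT5 adaptors CLNS1A, WDR77 and COPRS fell and RIOK1 did not pass. CLNS1A, which hands spliceosomal Sm proteins to PRMT5, fell from 90.2 CPM ± 1.43 to 33.4 CPM ± 1.35 (SD, n = 3), a log2 fold change of -1.43 (SE 0.05, adjusted p = 4.2e-14, edgeR quasi-likelihood test). WDR77, the obligate partner of PRMT5, named here after its values were seen, fell from 37.5 CPM ± 0.718 to 26.5 CPM ± 0.813. NNMT, which consumes S-adenosylmethionine by methylating nicotinamide, rose from 78.0 CPM ± 2.67 to 165 CPM ± 8.30 (log2 fold change 1.08, SE 0.05). In the whole list of PRMT5 partners and methionine cycle genes, 4 of 12 were higher and 5 lower. With library totals 7 were higher and 3 lower, COPRS no longer passing.

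SMYD5 (ENSG00000135632.12, chromosome 2, 73214222-73227221, plus strand), whose promoter is printed above, fell the most of the members with more than 1 FPKM. This enzyme of the SET and MYND domain family measured 62.1, 62.3 and 62.7 CPM in NC and 30.8, 26.8 and 23.2 CPM in siFSCN1. The NC libraries lay within 1 CPM of each other and every siFSCN1 library was below 31 CPM. The log2 fold change was -1.21 (SE 0.07, adjusted p = 6e-11, edgeR quasi-likelihood test), or 43.3% of the NC level. SMYD2, a methyltransferase of H3K36 and of p53, fell by 0.27 on the log2 scale, a call lost with library totals and the limma fits on FPKM, and SMYD3 and SMYD4 did not pass. With library totals SMYD5 was at -1.02, and after removal of the trends with abundance and length at -0.99.

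Of 6 other SET-domain proteins only SETD5 passed, rising from 46.7, 46.4 and 44.1 CPM to 56.6, 57.5 and 63.9 CPM (log2 fold change 0.38, SE 0.06). SETD3, which methylates a histidine of actin and is the most abundant of them, measured 59.5, 60.0 and 59.4 CPM in NC and 60.3, 62.2 and 66.4 CPM in siFSCN1. Its log2 fold change of 0.08 did not pass (adjusted p = 0.174, edgeR quasi-likelihood test). With upper quartile scaling or library totals 5 of the 6 were higher.

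Among the demethylases, KDM1A fell while KDM2A and KDM2B rose. KDM1A (chromosome 1, 23019443-23083689), the flavin enzyme LSD1 that demethylates H3K4, was the most abundant demethylase per length and fell from 101, 101 and 90.1 CPM to 62.9, 62.9 and 66.2 CPM. The log2 fold change was -0.60 (SE 0.05, adjusted p = 7.1e-09, edgeR quasi-likelihood test), and no siFSCN1 library reached the lowest NC library. Its paralogue KDM1B did not pass, at -0.08. Of 11 genes of the LSD1 and CoREST complex 5 were higher and 4 lower (7 and 3 with library totals). RCOR2, a CoREST scaffold expressed here at a low level, fell from 1.54 CPM ± 0.369 to 0.659 CPM ± 0.184, and PHF21A, the complex subunit that reads unmethylated H3K4, rose from 14.4 CPM ± 1.11 to 27.7 CPM ± 0.952.

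KDM2A (chromosome 11, 67119263-67258082), which binds unmethylated CpG islands and demethylates H3K36, rose from 31.7, 31.6 and 32.0 CPM to 51.1, 54.2 and 52.6 CPM. The log2 fold change was 0.73 (SE 0.05, adjusted p = 3.8e-10, edgeR quasi-likelihood test). KDM2B, its paralogue, rose by a like amount, 0.70 (SE 0.09), and the KDM2A to KDM2B ratio in FPKM overlapped between groups, at 4.08, 3.27 and 3.63 in NC and 3.50, 3.83 and 3.76 in siFSCN1. The summed level of both was 3.10 FPKM ± 0.0896 in NC and 5.74 FPKM ± 0.0493 in siFSCN1. The ratio was formed for 7 paralogue pairs, which were chosen by no set rule, and others such as KDM3A and KDM3B were left out. An exact two-sided permutation test over the 6 libraries cannot go below p = 0.1, so it could not pass at 0.05. Every pair whose groups do not overlap takes that value. These were EZH1 to EZH2, SUV39H1 to SUV39H2, EHMT1 to EHMT2, PRMT1 to PRMT2, KMT2C to KMT2D and KDM6A to KDM6B (adjusted p = 0.117 over the 7, exact permutation test). For KDM2A to KDM2B the exact permutation test gave p = 0.9, with the mean log2 ratio at 1.87 in NC and 1.89 in siFSCN1.

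KDM3A, an H3K9 demethylase induced by hypoxia in many cells, rose from 26.4, 28.3 and 27.9 CPM to 32.8, 33.9 and 33.5 CPM (log2 fold change 0.28, SE 0.05, adjusted p = 8e-05, edgeR quasi-likelihood test). KDM3B, the more abundant of the pair, measured 53.3, 52.0 and 51.1 CPM in NC and 49.4, 53.7 and 55.2 CPM in siFSCN1 and did not pass. Its groups overlapped.

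In the KDM4 group, which demethylates H3K9 and H3K36, KDM4B rose from 15.2, 13.8 and 12.8 CPM to 19.0, 18.4 and 19.5 CPM (log2 fold change 0.45, SE 0.08). KDM4C was higher by 0.32, a call lost after removal of the trends with abundance and length, and KDM4A, the most abundant of the group, did not pass at -0.10. KDM4D (chromosome 11, 94973709-94999519) was close to the limit of detection, with 27, 14 and 23 counts in NC and 8, 10 and 9 counts in siFSCN1. These counts correspond to 0.934, 0.532 and 0.672 CPM in NC and 0.233, 0.304 and 0.265 CPM in siFSCN1, without overlap. The log2 fold change of -1.41 carried an SE of 0.38 (adjusted p = 0.00289, edgeR quasi-likelihood test), the widest of any member. Against a null of a 2-fold change, edgeR's glmTreat called EZH1 (adjusted p = 0.0488) and SMYD5 (adjusted p = 0.0195) but not KDM4D (adjusted p = 0.439).

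The H3K4 demethylases of the KDM5 group did not move together. KDM5D, on the Y chromosome, was higher by 0.67 (SE 0.12, adjusted p = 5.7e-05, edgeR quasi-likelihood test), while KDM5C, its X-linked homologue and the most abundant of the group, did not pass at -0.10. KDM5B was lower by 0.15 (adjusted p = 0.0179, edgeR quasi-likelihood test), from 34.8, 34.8 and 36.5 CPM to 30.4, 31.1 and 33.9 CPM. That call was lost without NC replicate 3 (-0.14), with upper quartile scaling (-0.04) and with the abundance trend removed (-0.07), and with library totals KDM5B was at 0.03.

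Of the H3K27 demethylases KDM6B, the inducible enzyme JMJD3, rose from 10.6, 10.4 and 8.27 CPM to 14.9, 14.2 and 16.5 CPM (log2 fold change 0.65, SE 0.11, adjusted p = 4e-05, edgeR quasi-likelihood test). KDM6A did not pass at 0.20. EZH1 and KDM6B, a writer and an eraser of the same mark, were thus both higher.

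KDM7A, which demethylates H3K9 and H3K27, was higher, with 2.77, 2.47 and 1.93 CPM in NC and 3.58, 3.52 and 3.47 CPM in siFSCN1 (log2 fold change 0.57, SE 0.16, adjusted p = 0.0039, edgeR quasi-likelihood test). After removal of the trends with abundance and length its log2 fold change of 0.15 did not pass, nor did that of 0.33 after removal of the abundance trend alone. KDM8, a JmjC hydroxylase, was lower by 0.52 (SE 0.19, adjusted p = 0.0214, edgeR quasi-likelihood test). The call for KDM8 was lost without NC replicate 3 (-0.34) and without siFSCN1 replicate 3 (-0.45), and with upper quartile scaling, library totals, the limma fits on FPKM and DESeq2.

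**Figure D3:**
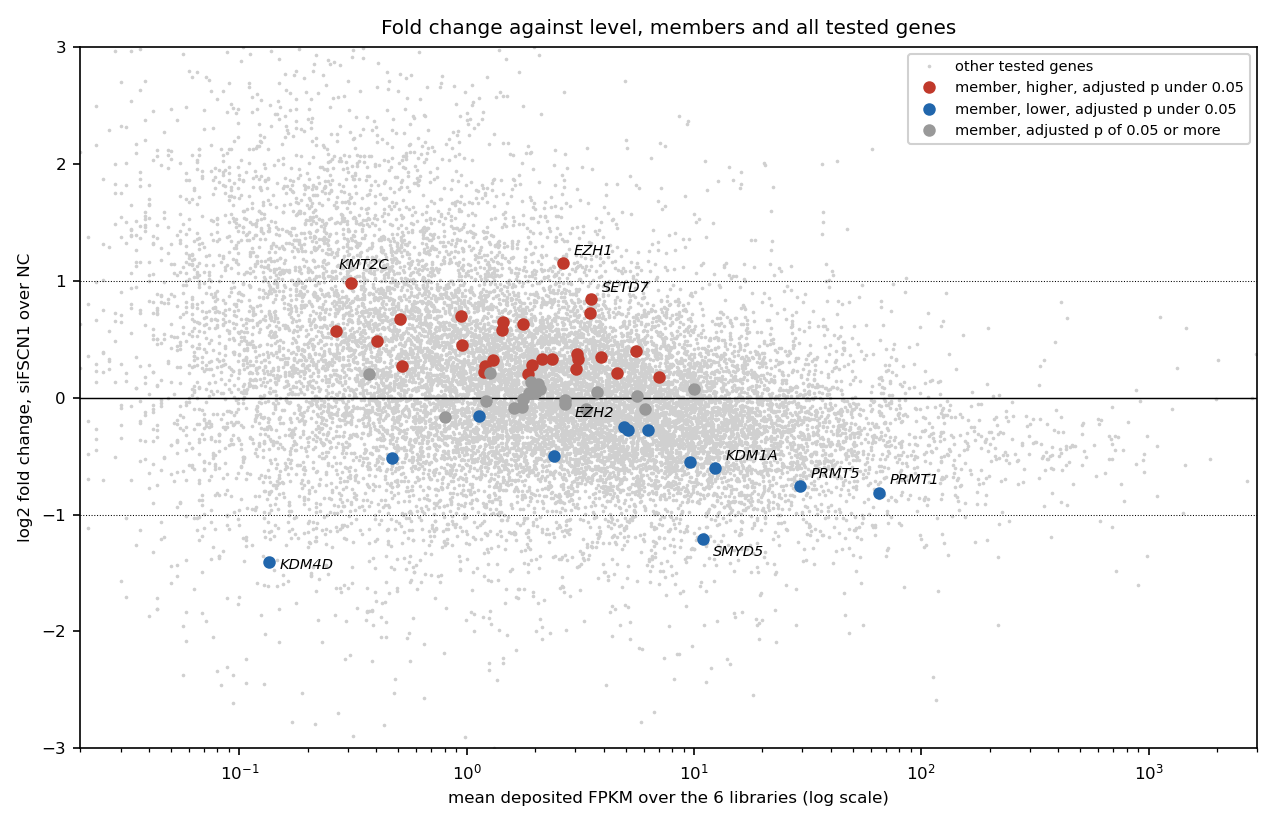
Log2 fold change (siFSCN1 over NC, vertical axis) against the mean deposited FPKM over the 6 libraries (log scale, horizontal axis) for the 58 members (large points) and the other tested genes (grey), of which 115 lie outside the axes. The 4 members with a mean of 10 FPKM or more, PRMT1, PRMT5, KDM1A and SMYD5, are all below 0, while most members under 10 FPKM are above it.

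The direction of change was set beside level and length. The 4 tested members with a mean of at least 10 FPKM, PRMT1, PRMT5, KDM1A and SMYD5, all fell, with a median log2 fold change of -0.78, and of 3132 such genes in all 65.7% were lower and 19.3% higher, with a median of -0.28. Among the 54 members under 10 FPKM, 27 were higher and 8 lower (14.8% lower; of all genes at that level 38.6% were higher and 25.9% lower). The median of these 54 was 0.20, against 0.13 over all genes at that level. Of 30 members with at least 8000 exonic bases, 20 were higher and 3 lower (66.7% higher; of all genes of that length 45.4% were higher and 25.6% lower), with a median of 0.28 against 0.15. Of the 28 shorter members, 7 were higher and 9 lower (32.1% lower; of all shorter genes 32.2% were higher and 35.4% lower), with a median of -0.003 against -0.01. Across the 58 members Spearman's rho between exonic length and log2 fold change was 0.45, and it was 0.18 across the protein-coding genes tested and 0.09 across all genes tested. Between abundance and log2 fold change it was -0.17 across the members, with a Pearson's r of -0.02, and -0.31 across all genes tested. These correlations are across genes that share libraries, and genes are not independent replicates. With the trends on abundance and length over all genes removed, the members' median was 0.03, with 21 higher and 15 lower. The part of level and length in the single changes was not tested beyond this.

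Exons of 28 tested members overlapped those of a gene on the opposite strand, among them PRMT1, PRMT5, KMT2C, KDM2A and DOT1L. The libraries were made with strand-specific kits, per the labels and the study's methods, but whether strand was used in counting was not given in the sources used here. If it was not, reads of the overlapping genes cannot be told apart. Among the 28 members whose exons overlapped no other gene, 13 were higher and 6 lower, and EZH1, SMYD5 and KDM4D were among them.

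Relatives that the naming rule leaves out also went both ways, with 8 of 14 tested higher and 5 lower. HR, a demethylase-related corepressor best known from hair follicles, fell from 22.5 CPM ± 2.81 to 10.6 CPM ± 1.08 (SD, n = 3; log2 fold change -1.09). RIOX1, a JmjC ribosomal oxygenase, fell from 20.9 CPM ± 0.211 to 10.2 CPM ± 0.306 (log2 fold change -1.04). MECOM, a PR-domain transcription factor at a low level, had the largest rise, 0.89 on the log2 scale (SE 0.24). With the trends on abundance and length removed 5 were higher and 4 lower, MECOM no longer passing. Library totals gave 9 higher and 3 lower.

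Proliferation genes were measured beside the enzymes, since EZH2 is known to follow the cell cycle in many cells. Of 15, 14 fell and none rose (0 of 15), with a median log2 fold change of -0.73. The share lower was 93.3%, against 33.2% of all genes tested and 65.7% of those with at least 10 FPKM. MCM7 fell the most, from 405 CPM ± 5.27 to 175 CPM ± 8.77 (SD, n = 3; log2 fold change -1.21), and MCM6 also fell by more than 2-fold. With library totals 12 were lower and 1 higher. Whether a shift in the cell cycle had a part in the change of any member was not tested. In bulk RNA a change in transcripts per cell cannot be told apart from a change in the share of cells that express a gene.

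**Figure D4:**
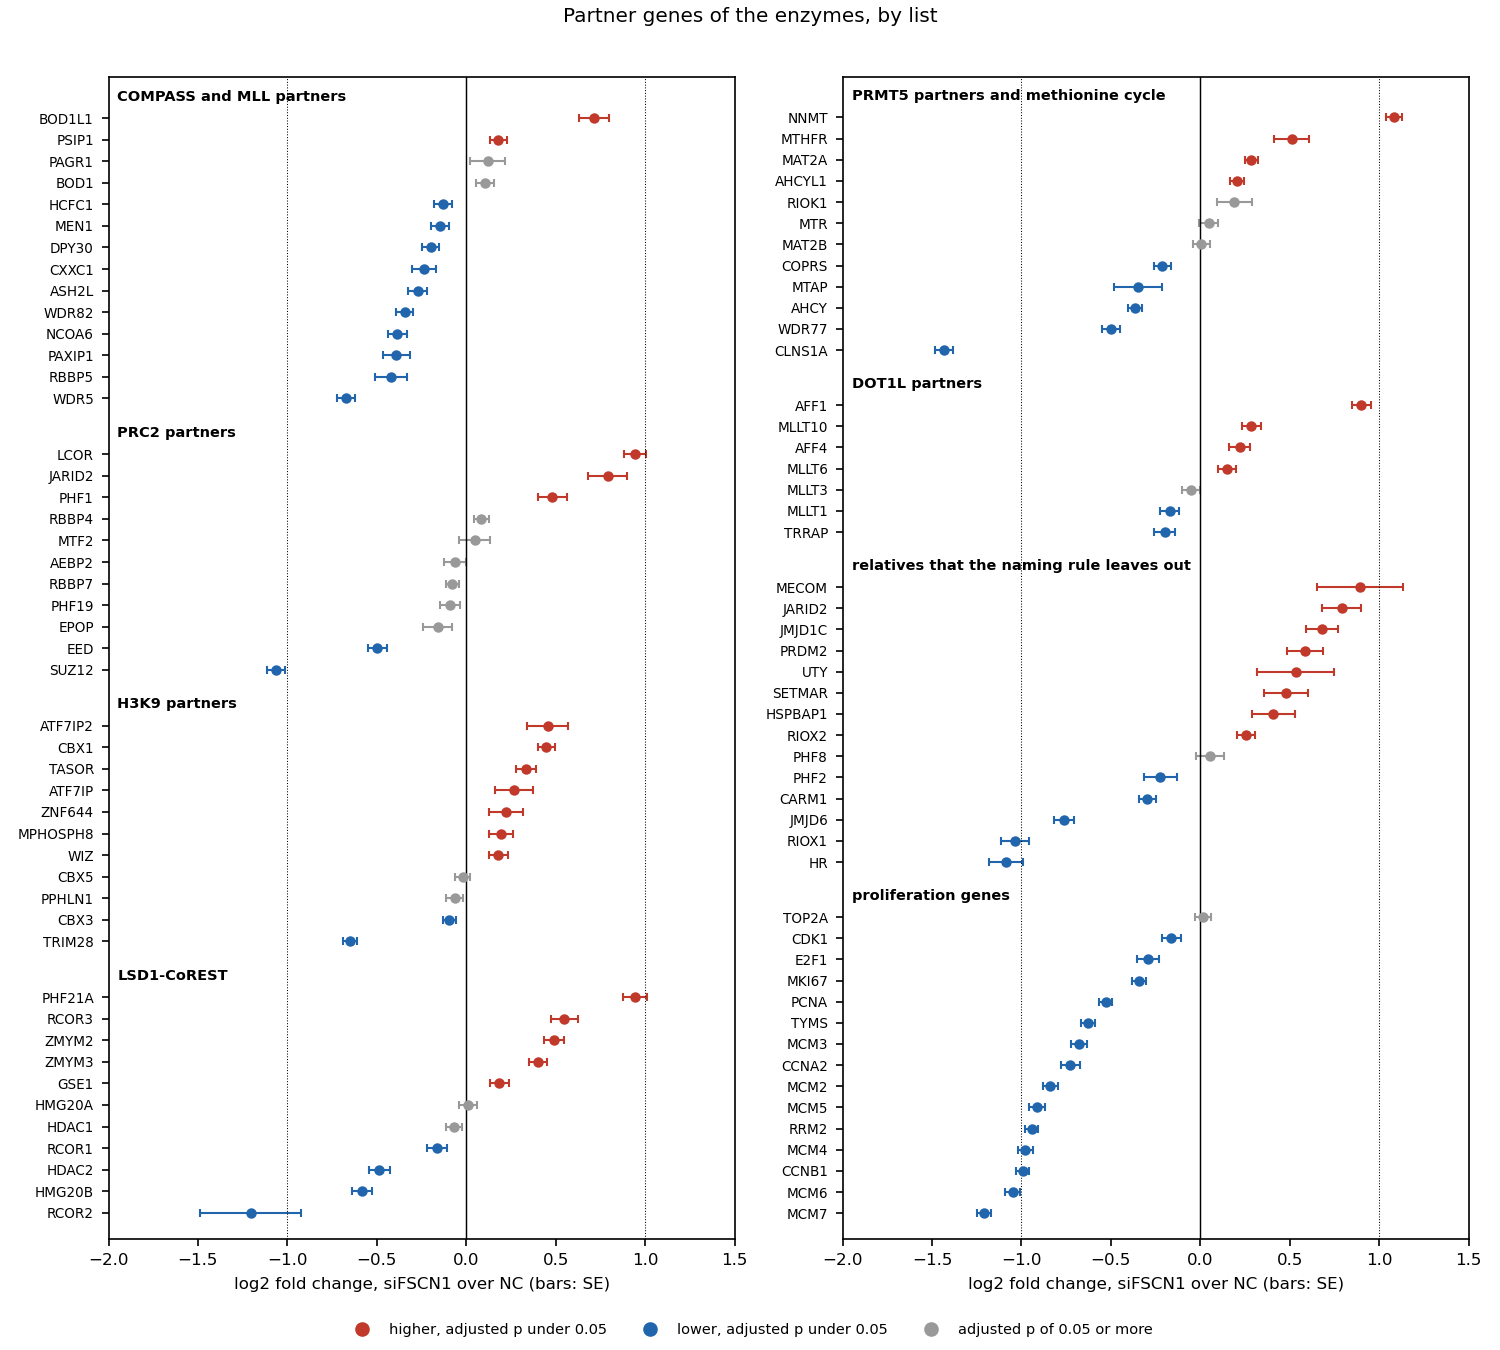
Log2 fold change of the tested partner genes (siFSCN1 over NC, horizontal axis), with bars of 1 SE, by list, JARID2 standing in 2 lists and red and blue points having an adjusted p under 0.05. SUZ12, RCOR2, CLNS1A, HR, RIOX1, MCM6 and MCM7 lie to the left of the dotted line at -1 and NNMT to the right of that at 1.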

How the data were processed

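RNA-seq was analysed in 6 libraries of A549 cells, 3 NC and 3 siFSCN1, grouped by their titles. Per the study's methods, reads were trimmed with the FASTX Toolkit (0.0.13), aligned to GRCh38 with HISAT2, and uniquely mapped reads were counted per gene. The submitters' processing notes also name TopHat2 and bcl2fastq. How strand was treated in counting, and with which program and annotation, is not given in the sources used here. The authors deposited raw read counts and FPKM values per gene and library. Here the counts were tested with edgeR (4.0.16, R 4.3.3) after filterByExpr and TMM scaling, by the quasi-likelihood test with Benjamini-Hochberg adjustment over 17076 genes. CPM carry the TMM factors (0.9328 to 0.942 in NC, 1.054 to 1.081 in siFSCN1), whereas FPKM were used as deposited, with no TMM factor, for levels per length, ratios of genes within a library and summed levels. Called 2-fold means an adjusted p under 0.05 and a log2 fold change of at least 1 in size, the thresholds of the study, which used DESeq2.

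The members, role lists and partner lists were chosen with earlier results of these data known. Members named were those changed 2-fold, the largest significant rise and fall and the most abundant member of each role list, NSD2, EZH1, EZH2 and those left out by the filter; partners named were the largest rise and fall per list and any changed 2-fold. Others are said to be named after their values were seen, or complete a role or pair. Gene positions are from GENCODE release 44, and exonic bases are its exons merged over all annotated transcripts of a gene. Deviations of same-numbered libraries from their group means correlated at -0.0347, 0.0398 and -0.0841, so the numbers were not taken as pairs. The edgeR fit was tested on simulated counts, and the other steps were not.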

Additional observations from a re-analysis of the deposited data

How the results depend on the processing

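Of the 39 members that passed, 37 kept their direction in every alternative that gave a value and 25 also kept their call (18 higher, 7 lower). KDM4D, one of these, had no row under the stricter filter on low counts. The count changed 2-fold was 5 with library totals, KMT2C and SETD7 being added, and 0 with limma on log2(FPKM + 1). It ran from 3 to 4 when each library was left out in turn. The count lower was 7 with library totals and with limma on log2(FPKM + 0.1) or log2(FPKM + 1). It ran from 10 to 13 when each library was left out, and the count higher from 25 to 28. The median log2 fold change of the members was 0.27 with upper quartile scaling, 0.34 with library totals, 0.20 with the stricter filter, 0.28 with limma on log2(FPKM + 0.1) and 0.031 with the trends on abundance and length removed, and it ran from 0.11 to 0.17 when each library was left out. The replicate block gave the same counts of members, 27 higher and 12 lower, with a median of 0.15, and changed no call. Most sign changes were in members that did not pass. EZH2 was 0.096 with upper quartile scaling, 0.17 with library totals, 0.0068 with the stricter filter, 0.14 and 0.10 with limma on log2(FPKM + 0.1) and log2(FPKM + 1), and 0.065 with the abundance trend removed. KDM4A was 0.020, 0.090, 0.067 and 0.053, and KDM5C 0.022, 0.092, 0.068 and 0.060, with upper quartile scaling, library totals and the limma fits in that order, and KDM5C was 0.064 with the abundance trend removed. KDM5B, which passed, was 0.033 with library totals and 0.011 and 0.0066 with the limma fits. KDM3B was -0.00015 with RLE scaling and -0.011 with DESeq2, and ran from -0.027 to 0.049 when each library was left out. The cause of these differences was not tested. Depth limits KDM4D, KDM7A, KDM8 and SETDB2, which had few counts and the widest errors. Intervals between 3 libraries a group cover only this cell line and this transfection.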
